A study of Mus musculus with 4 samples.

Results

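The nuclear genes for the subunits of the mitochondrial respiratory chain and ATP synthase were followed across 4 arrays of mouse bone marrow cells. They were chosen by name from the deposited probe sets that carry exactly 1 gene symbol, with the probe set of highest mean where a gene has several. Symbols of the Nduf (a, b, c, s, v), Sdh (a to d), Uqcr, Cyc1, Cox4 to Cox8 and Atp5 families were taken, and pseudogenes were left out. This gave 82 of 19938 genes: 35 of complex I, 4 of complex II, 9 of complex III, 17 of complex IV and 17 of ATP synthase. Ndufa4 and Ndufa4l2 were counted with complex I by name, though Ndufa4 is known as a subunit of complex IV. No measured value entered the choice of genes, but where a gene had several probe sets the pick used their mean signal. Cox7c, Ndufb4 and Ndufb4b lie only on probe sets with several symbols and were not analysed here.

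The study profiled haematopoietic stem cells on Affymetrix whole-transcript arrays, sorted from bone marrow for Sca-1 and c-Kit without lineage markers (LSK cells). It compared WT mice with Hif1a-/- mice to learn how the transcripts of these cells differ; Hif1a encodes the alpha subunit of HIF-1, a transcription factor that low oxygen stabilises. Each genotype had 2 arrays, called biological replicates and numbered 1 and 2, all from C57BL/6 (B6) mice aged 8 weeks. The labels do not give the deleted part of Hif1a, the tissue or stage of deletion, any Cre driver, or whether animals were pooled. The LSK gate also holds multipotent progenitors. Values are log2 signals, a difference of 1 log2 unit is a doubling, and signals of different probe sets were not compared. In bulk RNA, fewer cells of a type and less RNA per cell cannot be told apart.

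The respiratory chain passes electrons from NADH (at complex I) and from succinate (at complex II) through ubiquinone to complex III. Cytochrome c then carries them to complex IV, where oxygen is reduced. The protons pumped on the way drive ATP synthase. Most subunits are encoded in the nucleus, a few catalytic ones in mitochondrial DNA. Adult haematopoietic stem cells are known for a low reliance on respiration and a high reliance on glycolysis, to which HIF-1 contributes, while their differentiating progeny respire more.

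The 4 arrays differed in more than genotype. The median over all probe sets lay between 8.19 and 8.35, and the interquartile range was widest in WT array 2 (2.78) and narrowest in array 2 labelled Hif1a-/- (2.49). Hif1a itself read 10.37 (array 1) and 10.99 (array 2) in WT and 10.58 and 10.64 under the Hif1a-/- label, and the groups overlapped. A probe set can lie outside a deleted part, so this does not check the labels. Kit, which defines the gate, read 12.57 and 11.51 in WT against 12.37 and 11.32 under the Hif1a-/- label (array 1 before array 2). The 16 neutrophil markers had array medians of 9.75 and 11.21 in WT and 9.60 and 12.64 under the Hif1a-/- label, and the 18 stem cell markers 9.46 and 8.83 against 9.32 and 8.44. Xist, the RNA expressed from the inactive X chromosome of females, read 6.94 and 7.76 in WT and 6.82 and 11.23 under the Hif1a-/- label. The Y-linked genes Kdm5d, Eif2s3y and Uty were lowest in array 2 labelled Hif1a-/-, by 0.49 to 0.99 below array 1 of that label. Array number, cell makeup and these sex-linked genes moved together with the arrays compared, and their part in the results was not tested.

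Promoter sequences were searched for known motifs, and the choice of members did not use these sequences. Of the 82 members, 66 matched a promoter in RefSeq (GRCm38.p6), with 71 promoters in all, each running from 250 bases before to 50 bases after the start. The letters GCGCANGCG of NRF1, a factor known to activate respiratory chain genes, stood on either strand in 20 of the 71 promoters (28.17%), beside 6.25% of all 32851 promoters. CCGGAAG, read by ETS-family factors such as GABP, stood in 17 (23.94%, all promoters 8.86%), and AAGATGGCG of YY1 in 7 (9.86%, all promoters 1.4%). ACGTG, the core of the hypoxia response element bound by HIF-1, stood in 18 (25.35%, all promoters 19.62%). A match describes letters and is no proof of a bound site.

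The 150 bases before the start are printed for 5 members, 5′ to 3′ on the gene's own strand, which is the minus strand for each. Atp5h (chr11:115419920-115420069), Sdhd (chr9:50603850-50603999) and Cox6a1 (chr5:115348959-115349108) are the only members found with both NRF1 and ETS letters in these 150 bases. Cox6b2 (chr7:4753095-4753244) and Cox8b (chr7:140900447-140900596) are isoforms that behaved differently in these arrays. Capitals mark the motif letters, which appear reversed and complemented where they lie on the other strand.
Atp5h: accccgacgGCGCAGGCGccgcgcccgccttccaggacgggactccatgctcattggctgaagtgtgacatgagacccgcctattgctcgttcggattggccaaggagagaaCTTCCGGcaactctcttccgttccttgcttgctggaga
Sdhd: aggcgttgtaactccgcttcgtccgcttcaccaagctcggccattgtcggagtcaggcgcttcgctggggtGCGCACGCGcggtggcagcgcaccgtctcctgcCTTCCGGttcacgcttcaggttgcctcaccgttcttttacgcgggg
Cox6a1: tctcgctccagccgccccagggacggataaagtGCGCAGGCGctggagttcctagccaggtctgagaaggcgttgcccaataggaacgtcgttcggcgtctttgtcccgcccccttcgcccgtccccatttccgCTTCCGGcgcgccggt
Cox6b2: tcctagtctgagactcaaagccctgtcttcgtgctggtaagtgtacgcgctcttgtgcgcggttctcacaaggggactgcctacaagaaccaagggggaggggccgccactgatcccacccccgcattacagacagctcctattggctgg
Cox8b: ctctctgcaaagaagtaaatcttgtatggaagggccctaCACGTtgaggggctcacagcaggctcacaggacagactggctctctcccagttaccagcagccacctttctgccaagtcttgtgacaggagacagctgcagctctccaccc
Counted from the start, the NRF1 and ETS letters begin at positions −141 and −38 in Atp5h, −79 and −46 in Sdhd, and −117 and −16 in Cox6a1, and they do not overlap. In the printed bases of Cox6b2 none of the 4 motifs was found, and in those of Cox8b the HIF core alone was found, at −111.

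Nearly all subunit genes had their highest signal in 1 array, WT array 2. This held for 72 of the 82 members (87.8%), beside 5386 of all 19938 genes (27.0%) and 46.7% of the 4431 genes with a mean signal over 10. By complex, it was 33 of 35 genes of complex I, 3 of 4 of complex II, 9 of 9 of complex III, 11 of 17 of complex IV and 16 of 17 of ATP synthase. WT array 1 was the lowest array for 48 of the 82 (58.5%), beside 23.2% of all genes and 24.1% of genes with a mean over 10. The count of 72 stayed between 63 and 76 when the arrays were rescaled by quantiles, by cyclic loess or by their medians. The median member read 10.56 (array 1) and 11.23 (array 2) in WT, then 10.80 and 10.71 under the Hif1a-/- label.

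**Figure D1:**
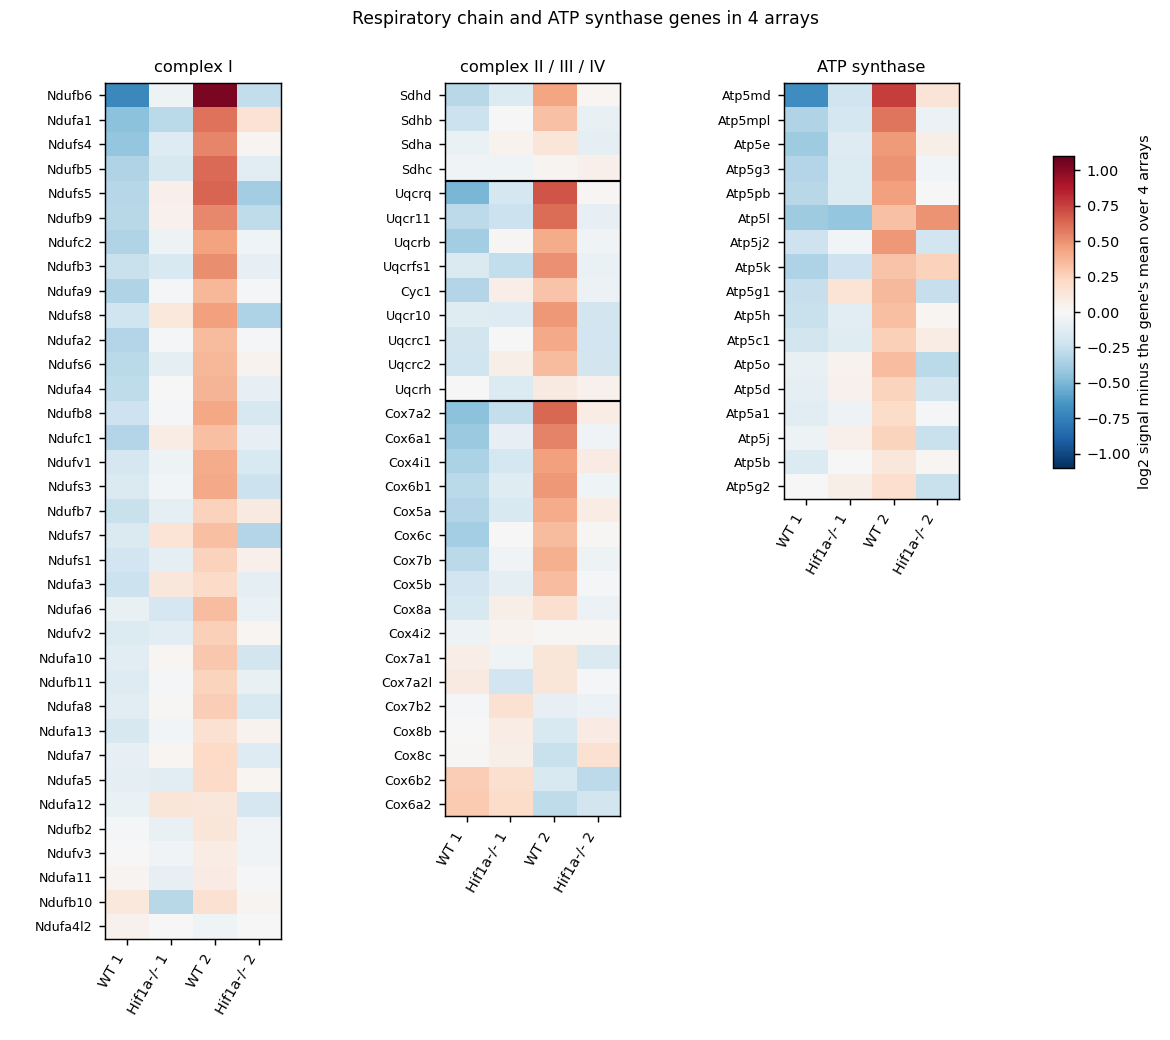
Heat map of the 82 subunit genes (rows, grouped by complex and ordered by the WT difference) in the 4 arrays (columns), coloured by log2 signal minus the gene's mean over the arrays. WT array 2 holds the highest value of 72 genes, seen as a red column, and the isoforms at the foot of complex IV are the main exceptions.

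The widest gap was that of Ndufb6, an accessory subunit of the membrane arm of complex I. It read 10.14 and 11.89 in WT arrays 1 and 2, a 3.36-fold step, and 10.79 and 10.58 under the Hif1a-/- label. Atp5md, which encodes a small membrane subunit of ATP synthase, read 10.81 and 12.25 in WT and 11.27 and 11.63 under the Hif1a-/- label. In both genes the arrays labelled Hif1a-/- lay inside the range of the WT pair. Uqcrq, an accessory subunit of complex III, had the same order at 9.96 and 11.16 in WT and 10.28 and 10.48 under the Hif1a-/- label. Over all members, the median step from array 1 to array 2 was 0.58 in WT and 0.01 under the Hif1a-/- label, against −0.02 and −0.03 over all genes.

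No subunit gene passed the test between the genotypes. With limma over all 19938 genes, 0 genes had an adjusted p under 0.05 (0.0% of genes; the lowest was 0.9998). Without adjustment, 145 genes (0.727%) had a p under 0.05, none of them a member. Without WT array 1, 16 members (19.5%) and 595 of all genes (2.98%) were at that level, with 0 called after adjustment. A fit with 1 array left out takes its spread from the remaining pair and assumes that the lone array varies likewise. Because each group holds 2 arrays and p-values measure the spread between these arrays alone, moderate differences could pass unseen: the median standard error of a member's log2 difference was 0.25, against 0.15 over all genes. The median member differed by −0.11 (Hif1a-/- minus WT), beside 0.00 over all genes and −0.09 over genes with a mean over 10. Of the 82, 70 were lower in the mean and 12 higher. Both arrays labelled Hif1a-/- lay below both WT arrays for 7 members, 8.54%, near the 8.33% of all genes. They lay above both for 2 members, 2.44%, where all genes gave 16.1% and genes with a mean over 10 gave 2.75%.

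The genotype difference had opposite signs in the array numbers. In number 1 the median member was 0.15 higher under the Hif1a-/- label, and 66 of 82 were higher. In number 2 the median was −0.40, and 75 of 82 were lower. The same medians over all genes were 0.02 and 0.01, and over genes with a mean over 10 they were 0.02 and −0.21. A total of 63 members (76.8%) were higher in number 1 and lower in number 2, beside 28.0% of all genes and 45.3% of genes with a mean over 10. Without WT array 2 the median genotype difference of the members became 0.15, and without WT array 1 it became −0.38. With 1 array per genotype and number, the interaction of the 2 factors has no residual degree of freedom and was not tested.

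**Figure D2:**
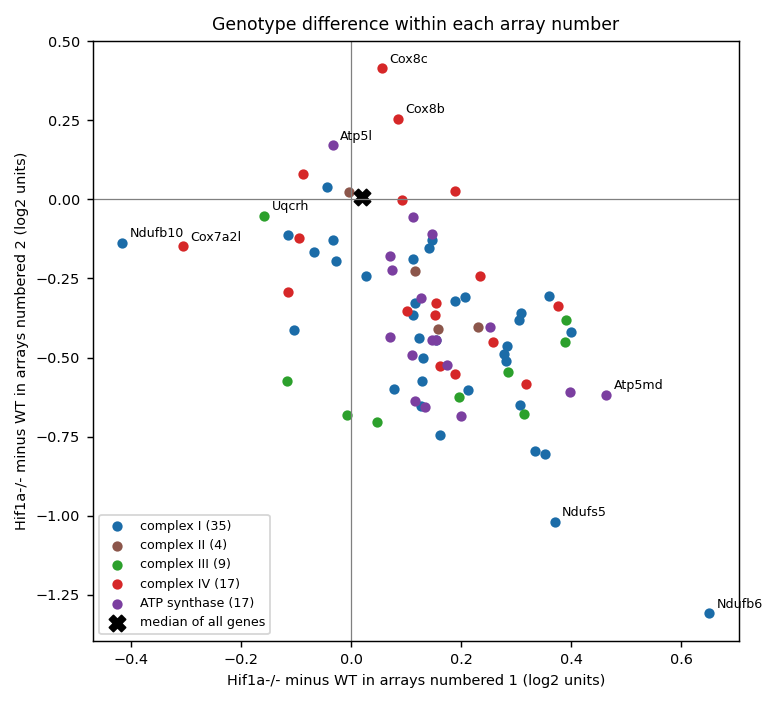
Each point is 1 subunit gene: its Hif1a-/- minus WT difference in the arrays numbered 1 (horizontal) and in those numbered 2 (vertical), in log2 units, coloured by complex, with the median of all genes as a cross. Of 82 genes, 63 lie at the lower right, higher in number 1 and lower in number 2, with Ndufb6 at 0.65 and −1.31.

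Complex I, the entry point for electrons from NADH, had a median genotype difference of −0.11, with 0.15 in number 1 and −0.41 in number 2. Its 6 measured core subunits, which form the arm around the flavin and the iron-sulfur clusters, were all higher in number 1 (0.03 to 0.34) and all lower in number 2 (−0.79 to −0.19) under the Hif1a-/- label. Ndufv1, the subunit that binds NADH, read 10.53 and 11.12 in WT and 10.66 and 10.55 under that label. Ndufs8, an iron-sulfur subunit, read 11.31 and 11.99 in WT and 11.65 and 11.19 under the Hif1a-/- label. Ndufs1, which carries further iron-sulfur clusters, read 10.05 and 10.51 in WT and 10.16 and 10.32 under it. In all 6 core genes the highest array was WT array 2 and the genotype groups overlapped.

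Among the 29 other complex I genes the smallest unadjusted p belonged to Ndufb10, a membrane-arm accessory subunit. It read 9.47 and 9.52 in WT and 9.05 and 9.38 under the Hif1a-/- label, and the groups did not overlap. The difference was −0.28 (SE 0.16, 95% interval −0.72 to 0.17, unadjusted p = 0.157 in limma), and −0.11 without array 1 labelled Hif1a-/-. Ndufa6 came next, at 10.46 and 10.88 in WT and 10.36 and 10.47 under the Hif1a-/- label, a difference of −0.26 (SE 0.19) that shrank to −0.05 without WT array 2. Only Ndufa3 (0.03, SE 0.21) and Ndufa13 (0.01, SE 0.16) were higher in the mean, and the sign of each turned under median centring and without WT array 1. Ndufs5, an accessory subunit, had the second widest gap within number 2 in complex I, with 9.35 in WT and 8.33 under the Hif1a-/- label, against 8.40 and 8.77 in number 1. Besides Ndufb10, the accessory genes Ndufb2, Ndufa11 and Ndufv3 had no overlap, with differences from −0.12 to −0.08. For Ndufa11 this held in the probe set used and not in the other one. Both Hif1a-/- arrays thus lay below both WT arrays in 4 of 35 complex I genes. The share was 8.33% over all genes and 10.4% over genes with a mean over 10.

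Complex II, succinate dehydrogenase, had a median step of 0.38 from array 1 to array 2 in WT, and a median genotype difference of −0.07. Sdha, the flavoprotein that oxidises succinate, read 11.84 and 12.05 in WT and 11.96 and 11.82 under the Hif1a-/- label, a difference of −0.06 (SE 0.14). Sdhb, the iron-sulfur subunit, read 10.48 and 11.04 in WT and 10.71 and 10.64 under the label. Of the membrane anchors, Sdhd read 10.49 and 11.22 in WT and 10.64 and 10.82 under the Hif1a-/- label (difference −0.13, SE 0.29). Sdhc stayed within 0.10 log2 units over the arrays, from 11.36 to 11.46, and was the member of complex II that did not peak in WT array 2. No group of arrays separated for any of the 4 genes by genotype.

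In complex III all 9 genes peaked in WT array 2, and the median genotype difference was −0.18, with 0.20 in number 1 and −0.57 in number 2. Uqcrfs1, the Rieske iron-sulfur protein, read 9.22 and 9.89 in WT and 9.11 and 9.31 under the Hif1a-/- label, a difference of −0.34 (SE 0.27, 95% interval −1.09 to 0.40, unadjusted p = 0.266 in limma). Uqcr10, a small accessory subunit, read 9.65 and 10.27 in WT and 9.65 and 9.59 under the label, a difference of −0.34 (SE 0.24). Its groups did not overlap only by the narrow gap between WT array 1 and array 1 labelled Hif1a-/-. Cyc1, cytochrome c1, read 10.92 and 11.55 in WT and 11.31 and 11.17 under the Hif1a-/- label, and its difference was 0.00 (SE 0.25). The core proteins Uqcrc1 (11.59 and 12.20 in WT, 11.79 and 11.58 under the label) and Uqcrc2 (11.90 and 12.47, 12.19 and 11.92) were also highest in WT array 2, followed by array 1 labelled Hif1a-/-. Without WT array 2 the differences of Uqcrfs1 and Uqcr10 shrank to −0.01 and −0.04.

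Complex IV, cytochrome c oxidase, split by isoform. Several of its subunits come in a widespread form and in forms known from heart, skeletal muscle, lung or testis. The latter forms, together with Ndufa4l2, make 8 tissue-restricted members, a grouping from textbook knowledge made with the values in view and given without a test. The 10 other complex IV genes all peaked in WT array 2, with a median WT step of 0.73. Of the 8 tissue-restricted genes 1 peaked there (Cox7a1, 12.5%), beside 27.0% of all genes. The median WT step of the 8 was −0.13, against −0.02 over all genes. Their genotype medians were 0.01 in number 1 and 0.03 in number 2. Their mean signals ran from 6.08 to 9.87, below the 9.94 to 12.96 of the 10 other complex IV genes. Between the 8 and the 10 genes, isoform type and signal level therefore cannot be told apart. Genes of other complexes that are not tissue-restricted also read at the level of the 8. Their WT steps varied, with 0.95 for Ndufs5 and 0.87 for Atp5e, but 0.14 for Ndufb2 and 0.05 for Ndufb10. Each of these peaked in WT array 2, and the part of signal level was not tested. The deposited values carry no detection call, so how far the signals of the 8 are background is not known.

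The pairs show this gene by gene. Cox4i1, the widespread form of subunit 4, read 10.74 and 11.54 in WT and 10.89 and 11.18 under the Hif1a-/- label. Cox4i2, the lung form and a known HIF-1 target, read 8.98 and 9.05 in WT and 9.07 and 9.05 under the label (difference 0.04), with no array apart. Cox6a1, the liver-type form, read 10.81 and 11.76 in WT and 11.13 and 11.18 under the label. Cox6a2, the form of heart and muscle, ran the other way, with 10.15 and 9.59 in WT and 10.07 and 9.67 under the Hif1a-/- label, so both arrays numbered 2 lay below both numbered 1. Cox6b2, the testis form, had the same order, stepping by −0.44 in WT and by −0.47 under the label, while Cox6b1 read 11.35 and 12.12, then 11.51 and 11.60. Ndufa4 read 10.20 and 10.85 in WT and 10.49 and 10.39 under the label. Its HIF-inducible relative Ndufa4l2 read 7.83 and 7.73, then 7.78 and 7.77, with no array apart.

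**Figure D3:**
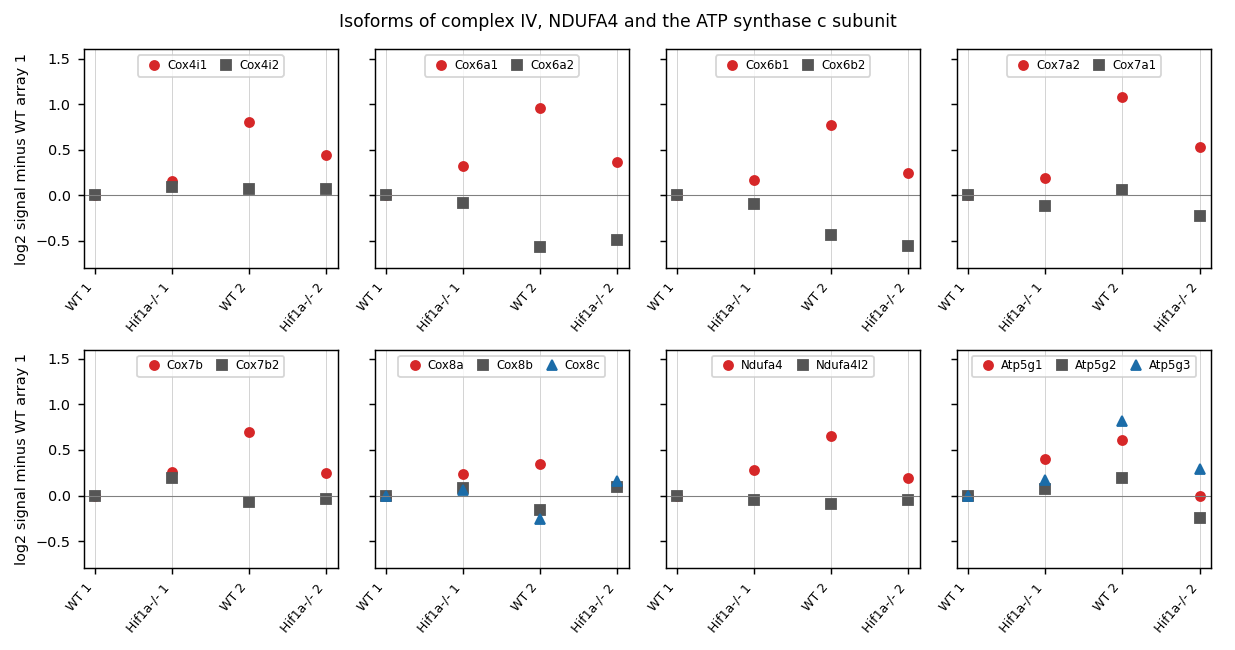
Log2 signal minus that of WT array 1 for the isoforms of 6 complex IV subunits, of NDUFA4 and of the ATP synthase c subunit, in the 4 arrays. The widespread forms (red circles in the first 7 panels) are highest in WT array 2, from 0.35 for Cox8a to 1.08 for Cox7a2, while the grey squares of those panels and the triangle of Cox8c lie between −0.57 and 0.07 there.

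No complex IV gene passed the genotype test either. The smallest unadjusted p was that of Cox7a2l, a factor of respiratory supercomplexes, at 10.04 and 10.07 in WT and 9.73 and 9.92 under the Hif1a-/- label. Its groups did not overlap, and the difference was −0.23 (SE 0.13, 95% interval −0.58 to 0.12, unadjusted p = 0.145 in limma), and −0.13 without array 1 labelled Hif1a-/-. Cox7a1, the heart and muscle form, read 8.44 and 8.50 in WT and 8.32 and 8.21 under the label (difference −0.20, SE 0.12). Both WT arrays lay below both Hif1a-/- arrays in 2 members alone, Cox8c (8.65 and 8.39 in WT, 8.71 and 8.81 under the label; difference 0.24, SE 0.14) and Cox8b (8.13 and 7.97, then 8.22 and 8.23; difference 0.17, SE 0.12). Without WT array 2 these became 0.11 and 0.09. The HIF core letters stand in the promoter of Cox8b and also in that of Cox7a1, which was lower in the mean. Over the 19 genes of the isoform list the unadjusted p ran from 0.145 to 0.992, and over the 22 core subunits of the chain from 0.266 to 0.986.

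ATP synthase had a median genotype difference of −0.10, with 0.13 in number 1 and −0.44 in number 2. Its 5 measured F1 subunits, the catalytic head, all peaked in WT array 2. Atp5b, the catalytic beta subunit, read 13.08 and 13.36 in WT and 13.23 and 13.25 under the Hif1a-/- label, a difference of 0.02 (SE 0.14). Atp5a1, the alpha subunit, read 12.39 and 12.72 in WT and 12.47 and 12.50 under the label. Atp5e, the epsilon subunit, had the widest WT step of the head, with 9.18 and 10.05 in WT and 9.44 and 9.65 under the label. The genes with the smallest p among lower ones were Atp5o, the stalk subunit that confers oligomycin sensitivity (10.50 and 10.92 in WT, 10.62 and 10.28 under the label; difference −0.26, SE 0.22), and Atp5g2 (13.11 and 13.30, then 13.18 and 12.87; difference −0.18, SE 0.17). Without WT array 2 these differences were −0.05 and −0.09, and without array 2 labelled Hif1a-/- they were −0.09 and −0.03. Atp5g1, Atp5g2 and Atp5g3 encode the same mature c subunit, and their WT steps were 0.60, 0.19 and 0.82.

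Between the array numbers 2 members passed the test, and both encode small membrane subunits of ATP synthase linked to its dimers. Atp5l, subunit g, read 9.72 and 10.43 in WT and 9.68 and 10.61 under the Hif1a-/- label, so it rose by 0.82 from number 1 to number 2 (SE 0.12, 1.77-fold, adjusted p = 0.017 in limma). Atp5k, subunit e, read 9.74 and 10.40 in WT and 9.86 and 10.34 under the label, and rose by 0.57 (SE 0.11, 1.48-fold, adjusted p = 0.044). In both genes the 2 arrays of a number lay close together and the step was seen in each genotype. The 2 calls are 2.44% of the members, where 759 genes (3.81%) were called higher in number 2 and 585 (2.93%) lower over all genes, so the members' share is near the background. With each array centred on its median the split over all genes was 512 higher and 155 lower, and Atp5k missed the threshold (adjusted p = 0.097). It also missed it with genotype as a block (0.089), with trend and robust eBayes (0.085) and without the dimmest 40% of genes (0.053). The counts moved when single arrays were left out, over all genes as well. Without WT array 1 and without array 1 labelled Hif1a-/-, 0 members passed, with 1.6% and 2.3% of all genes called in either direction. Without WT array 2, 7 members (8.54%) and 23.4% of all genes passed, and without array 2 labelled Hif1a-/- 49 members (59.8%) and 23.1% of all genes.

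An unadjusted p under 0.05 between the numbers was found for 18 members, 16 higher (19.5%, all genes 8.94%) and 2 lower in number 2 (2.44%, all genes 10.6%). The 2 lower ones were Cox6a2 (−0.48, SE 0.11, adjusted p = 0.070) and Cox6b2 (−0.45, SE 0.12, adjusted p = 0.089). In complex I the smallest p belonged to Ndufa1, a small X-linked accessory subunit, at 9.10 and 10.16 in WT and 9.26 and 9.71 under the Hif1a-/- label (0.75, SE 0.18, adjusted p = 0.068 in limma). In complex IV it was Cox7a2, the widespread form of subunit 7a, at 9.87 and 10.95 in WT and 10.05 and 10.39 under the label (0.71, SE 0.20) among the higher ones. Sdhd (0.45, SE 0.17) and Uqcrq (0.70, SE 0.25) led complexes II and III. Both arrays numbered 2 lay above both numbered 1 for 38 members (46.3%, all genes 20.4%) and below for 4 (4.88%, all genes 27.2%). Those 4 were Ndufa4l2, Cox6a2, Cox6b2 and Cox7b2, all of them tissue-restricted. The step is given here per genotype, and its difference between them was not tested: ATP synthase had medians of 0.60 in WT and 0.12 under the Hif1a-/- label, complex I 0.50 and −0.00, and complex III 0.63 and −0.05. The small medians under the Hif1a-/- label turned sign for complexes I and III under cyclic loess (0.07 each).

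**Figure D4:**
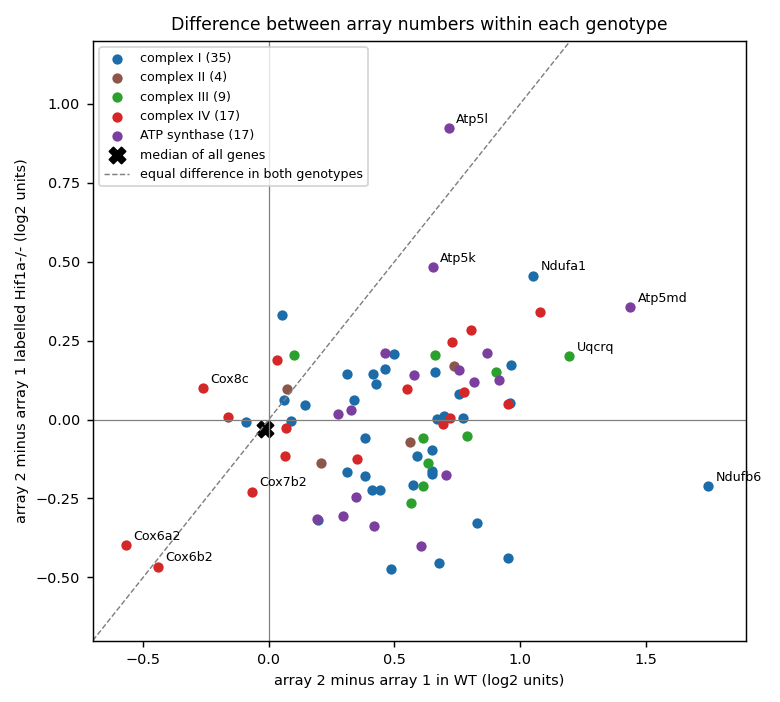
Each point is 1 subunit gene: array 2 minus array 1 in WT (horizontal) against the same in arrays labelled Hif1a-/- (vertical), in log2 units, with the median of all genes as a cross and a dashed line of equal differences. Most genes lie right of 0 and below the line, at a median of 0.58 and 0.01, and Atp5l (0.72 and 0.92) lies above it.

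Promoter motifs were set beside these steps. The 35 members with NRF1, ETS or YY1 letters had a median WT step of 0.61, and 34 of them peaked in WT array 2. The 31 members with a promoter but none of these letters had a median of 0.44, and 27 peaked there. The 17 members with the HIF core had genotype medians of 0.12 in number 1 and −0.37 in number 2, close to those of all members. Of the 8 tissue-restricted isoforms 4 had a promoter (Cox6b2, Cox7a1, Cox7b2 and Cox8b), and none of these held NRF1, ETS or YY1 letters. All 4 are therefore among the 31, and of them Cox7a1 alone peaked in WT array 2. Whether the letters relate to the steps was not tested.

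Other mitochondrial genes were described from lists of fixed symbols. None of their genes passed the genotype test, and those at an unadjusted p under 0.05 numbered 0 in each mitochondrial list. The 77 mitochondrial ribosomal proteins had a median WT step of 0.56, a genotype median of −0.53 in number 2, and 74 genes peaking in WT array 2. The 42 assembly factors had medians of 0.36 and −0.42 for the same differences, with 37 genes peaking in WT array 2. Bcs1l, which inserts the Rieske protein into complex III, read 10.28 and 10.64 in WT and 10.30 and 9.55 under the Hif1a-/- label. The 16 citric acid cycle genes had medians of 0.40 and −0.51. Suclg2, a subunit of succinyl-CoA ligase, read 10.34 and 10.63 in WT and 10.39 and 9.47 under the label. Array 2 labelled Hif1a-/- was the lowest array for 39 of 77 mitochondrial ribosomal genes, 27 of 42 assembly factors and 19 of 82 members. It was the lowest for 6195 of all 19938 genes and for 2090 of the 4431 genes with a mean over 10. The difference between the lists was not tested.

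Among the electron carriers and transporters, 23 genes, Cycs stood out, the gene of cytochrome c. It read 10.97 and 12.45 in WT and 11.39 and 12.26 under the Hif1a-/- label, and was the one gene of the list called between the numbers (1.17, SE 0.17, adjusted p = 0.018 in limma). Over all genes, 3.81% were called higher in number 2 and 2.93% lower. The 18 regulators of nuclear and mitochondrial transcription had a median WT step of 0.03. Tfam, which packages and transcribes mitochondrial DNA, read 9.02 and 9.33 in WT and 8.99 and 8.50 under the label, and Tfb2m 9.78 and 10.18, then 9.86 and 9.38. Of the regulators 2 were called lower in number 2, chosen here after their values were seen: Gabpb1, a subunit of GABP (10.63 and 10.02 in WT, 10.77 and 9.88 under the label), and Ppargc1a, a coactivator of mitochondrial genes (7.82 and 7.23, then 7.96 and 7.37). Of the subunit genes, 72 of 82 were higher in number 2 in the mean, beside 8886 of all 19938 genes and 2221 of the 4431 genes with a mean over 10. Of the 13 subunits encoded in mitochondrial DNA 2 were matched, COX2 (13.79 and 13.68 in WT, 13.76 and 13.95 under the label) and ND3 (12.43 and 12.60, then 12.55 and 12.42), and neither had WT array 2 far above the rest.

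The 11 mitochondrial genes linked to HIF-1, of which Cox4i2 and Ndufa4l2 are members, had a genotype median of −0.23, with 0.01 in number 1 and −0.54 in number 2. Higd1a, a hypoxia-induced factor of the chain, read 7.84 and 7.86 in WT and 7.66 and 7.21 under the Hif1a-/- label, a difference of −0.41 (SE 0.19, unadjusted p = 0.096 in limma). Bnip3, a mitophagy receptor and known HIF-1 target, read 9.22 and 9.55 in WT and 9.25 and 8.83 under the label (−0.35, SE 0.22). For Higd1a the groups did not overlap, and for Bnip3 they did. Both Hif1a-/- arrays lay below both WT arrays in 3 of the 11 genes. The share was 8.33% over all genes and 10.4% over genes with a mean over 10.

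Markers of other cell types differed between the array numbers in both genotypes. The neutrophil list had a median step of 1.34 in WT and 2.75 under the Hif1a-/- label, with 16 of 16 genes higher in number 2 in each. The mast cell and basophil list had 1.66 and 1.34, with 11 of 12 higher in each, and the 11 monocyte and macrophage genes 0.99 and 1.18. Camp, a neutrophil granule peptide, read 9.56 and 11.07 in WT and 9.62 and 12.52 under the label. The stem cell list was lower in number 2, with medians of −0.57 and −0.52, and Cd34 read 13.33 and 12.46 in WT and 13.30 and 10.92 under the label. The 24 cell cycle genes had medians of 0.28 in WT and −0.35 under the label, and genotype medians of 0.25 and −0.34 in numbers 1 and 2. Array 2 labelled Hif1a-/- was the highest array for 12 of 16 neutrophil markers. WT array 2 was the highest for 72 of 82 members and 27.0% of all genes. It was also the highest for 7 of 11 monocyte and macrophage genes, 6 of 12 mast cell and basophil genes and 12 of 24 cell cycle genes. For the neutrophil list this count was 4 of 16, and for the stem cell list 1 of 18. Steps in WT and under the Hif1a-/- label were 0.53 and 0.33 for the erythroid list, 0.02 and −0.65 for the megakaryocyte list, 0.23 and 0.32 for the T and NK cell list, and 0.06 and −0.15 for 57 cytosolic ribosomal proteins. In the B cell list the genotype medians were 1.12 and 0.81 in numbers 1 and 2. Of its 11 genes, 6 had an unadjusted p under 0.05 in limma, beside 0.727% of all genes. Both Hif1a-/- arrays lay above both WT arrays for 8 of the 11, beside 16.1% of all genes. What part cell makeup and cell cycle had in the members' values was not tested.

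**Figure D5:**
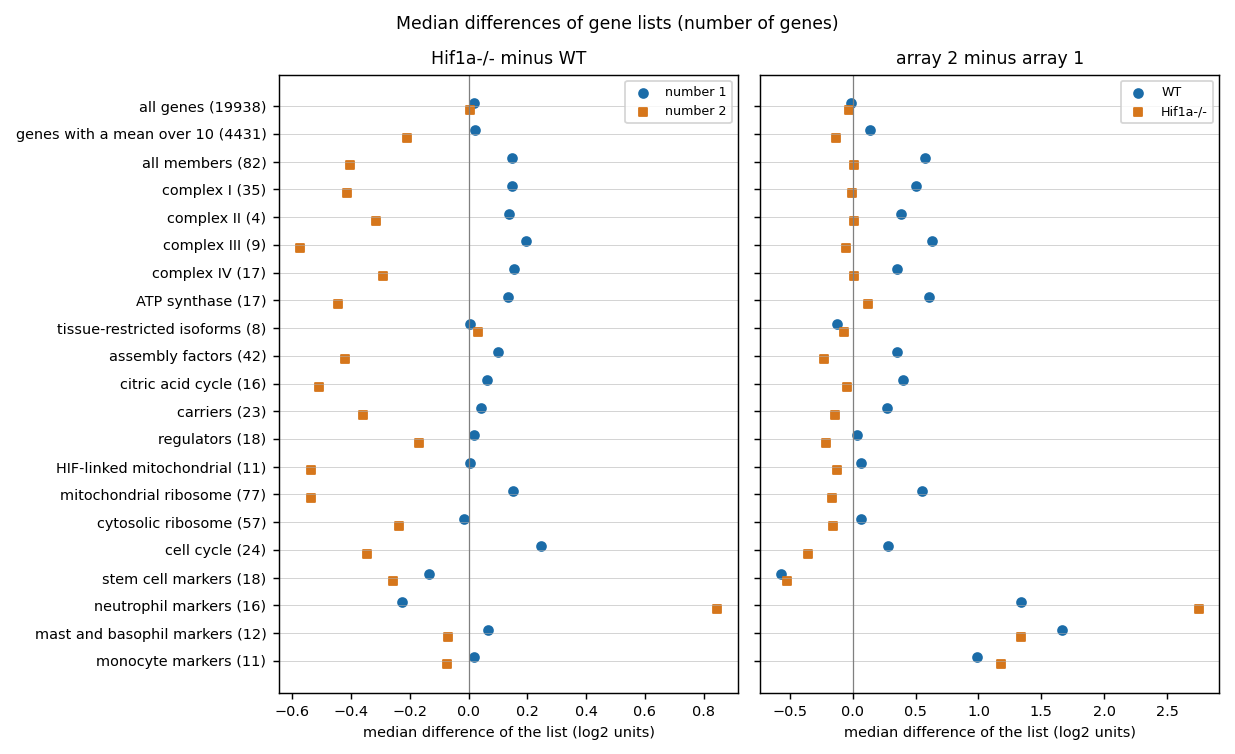
Median log2 difference of each gene list (rows, with the number of genes): Hif1a-/- minus WT in numbers 1 and 2 (left), and array 2 minus array 1 in WT and under the Hif1a-/- label (right). The 82 members, assembly factors, the citric acid cycle and the mitochondrial ribosome lie between 0.36 and 0.58 in WT and between −0.22 and 0.01 under the Hif1a-/- label, while the neutrophil, mast cell and monocyte lists lie right of 0 in both genotypes.

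Of the 82 members 16 had several probe sets with 1 symbol, and for Ndufa11 and Uqcr11 these disagreed. The probe set used for Ndufa11 stepped by 0.06 in WT with no overlap of the genotype groups, and the other one stepped by 0.75. That other one read 10.17 and 10.91 in WT and 10.37 and 10.15 under the Hif1a-/- label, and its groups overlapped. For Uqcr11 the probe set used stepped by 0.90 in WT and its genotype groups overlapped. The other one read 9.43 and 9.83 in WT and 9.16 and 9.36 under the Hif1a-/- label, a step of 0.40 with no overlap of the groups. The WT steps of the 6 probe sets of Atp5l lay between 0.72 and 0.83. Genes with several probe sets may share signal with near-identical copies, so their values are less certain.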

How the data were processed

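The 4 arrays measured labelled RNA. The deposited values are log2 signals (base judged from their range). According to the submitters' processing notes the authors used RMA and Affymetrix Expression Console 1.1. RMA scales arrays towards a common distribution, so a change shared by all genes would be largely removed. The deposited values still differed in spread, with interquartile ranges from 2.49 to 2.78. After quantile rescaling the members' median genotype difference in number 2 was −0.27, against −0.40 as deposited. The authors' build: not given in the sources used. Of 35556 probe sets, 21789 had exactly 1 symbol, 1621 had several and 12146 were not listed, and 0 columns belonged to other samples.

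Genotypes, and array numbers, were each compared by two-sided limma fits without covariates (limma 3.58.1, R 4.3.3) over 19938 genes. p-values were adjusted by Benjamini-Hochberg, with a call at an adjusted p under 0.05. The number of arrays, 4, limits the precision. Members, lists, tests and alternatives were chosen with earlier results of these data known. Any member could be named with its values. Errors and p-values could be given for called members, core and isoform lists, and up to 2 genes per complex and direction with the smallest p. Of other lists, up to 2 genes per direction with the smallest genotype p were named, and Kit, Gabpb1 and Ppargc1a were added. The steps were tested on simulated data. Alternatives were a block, each array left out, quantile, loess and median scaling, the dimmest 40% of genes left out, averaged probe sets, and eBayes with trend and robust. Labels do not say that array numbers mark shared litters or days, so no pairing was assumed.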

Additional observations from a re-analysis of the deposited data

Results flagged for a closer look

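The genotype difference (Hif1a-/- minus WT) had opposite signs in the array numbers, and the difference between the numbers was not tested, since 1 array per genotype and number leaves no residual spread. The median over the 82 members was 0.15 in number 1 and −0.40 in number 2. It was 0.15 and −0.41 in complex I, 0.14 and −0.32 in complex II, 0.20 and −0.57 in complex III, 0.15 and −0.29 in complex IV, and 0.13 and −0.44 in ATP synthase.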

How the results depend on the processing

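Of 683 comparisons with the values reported, 594 were rated the same, 8 lost a call, 16 gained one, 39 changed sign and 26 moved. For a single gene, the same meant an unchanged sign and call. For a median it meant an unchanged sign and a shift under 0.34, and for a count a change within a fixed fold limit. This is a loose limit: the members' median genotype difference was rated the same at −0.38 without WT array 1, against −0.11 reported. limma called 0 genes and 0 members between the genotypes under each alternative run. Genes at an unadjusted p under 0.05 (145) became 478 with the replicate block, 339 with trend and robust, 39 without the dimmest genes, and 57 to 622 with single arrays left out. Members at that level became 0 to 16. The number fit (1344 genes, 2 members called) gave 1108 genes and 1 member with genotype as a block, 667 and 1 under median centring, 1 member without the dimmest genes and 1 with trend and robust. With single arrays left out it called 319 to 4661 genes and 0 to 49 members, the highest of each without different arrays. Such fits take the spread from 1 pair alone. Members at an unadjusted p under 0.05 (18) became 32 under loess, 11 under median centring and 3 to 61 with single arrays left out. For these settings no count over all genes at an unadjusted p under 0.05 between the numbers is given. The member counts therefore have no background and do not set the members apart from other genes. The replicate block changed no genotype call. Number differences in WT and under the Hif1a-/- label correlated at 0.67 across genes, which are not independent, and 2 pairs cannot settle a pairing.

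Signs turned as follows, with the lowest and highest value over single arrays left out. Median genotype differences ran from −0.38 to 0.15 for the members, −0.39 to 0.12 in complex I, −0.26 to 0.12 in II, −0.52 to 0.12 in III, −0.24 to 0.15 in IV and −0.38 to 0.20 in ATP synthase, each highest without WT array 2. Genotype differences ran from −0.19 to 0.25 for Ndufa3, −0.16 to 0.18 for Ndufa13, −0.039 to 0.058 for Sdhc, −0.49 to 0.24 for Sdhd, −0.16 to 0.047 for Sdha, −0.31 to 0.32 for Cyc1, −0.39 to 0.53 for Atp5l and −0.12 to 0.16 for Atp5b. Number differences ran from −0.22 to 0.094 for Ndufa12, −0.25 to 0.24 for Atp5j and −0.28 to 0.16 for Atp5g2. Under loess, Sdha became 0.031, the complex II median 0.017, and the number medians under the Hif1a-/- label 0.075 in complex I and 0.066 in complex III. Median centring moved the median of all genes in number 2 to −0.16 (Hif1a-/- minus WT). Under it Ndufa3 became −0.060, Ndufa13 −0.077, Sdhc −0.078, Cyc1 −0.082, Atp5l −0.017, Atp5b −0.069 and, in the number fit, Atp5j 0.039. The number medians under the Hif1a-/- label became −0.024 for all members, −0.020 in complex II and −0.023 in complex IV. The causes were not tested.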
